A study of Homo sapiens with 12 samples.

Results

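HILPDA, PLIN2, NDRG1, ANKRD37, PPFIA4, WSB1, FAM162A, HIGD1A, RORA and CA9 are genes known as targets of the hypoxia-inducible factors (HIF), most of whose products act on lipid droplets, in mitochondria or elsewhere inside the cell. They were taken by symbol from a table of 57773 human gene IDs, and all 10 were found. RNA was sequenced from HEK293 cells, a human embryonic kidney line, and from the extracellular vesicles (EVs) that these cells released. The 4 groups of 3 libraries each were hypoxia EVs, normoxia EVs, hypoxia cells and normoxia cells. Cells of every group, controls included, had been transfected for 48 h with the 4EC1 vectors, described as eGFP-EIF4E-C-YTHDF1/GBP1-CD9 and meant to load mRNA into EVs, and were grown with 10% serum. Hypoxia meant 24 h in a hypoxia chamber, and its oxygen level is not stated by the labels. RNA was extracted by TRIzol from cells and by an ExoRNeasy kit from EVs, so that EVs and cells differ in extraction as well as in origin. Libraries of long RNA were made with a strand-marking total RNA kit. Whether replicates came from separate cultures is not said, and p-values therefore cover the spread of these libraries, which may be technical.

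When oxygen is plentiful, prolyl hydroxylases mark the HIF alpha subunits for destruction by the VHL ubiquitin ligase. When it is scarce the subunits persist, pair with ARNT and bind the core letters ACGTG or GCGTG in the control regions of their targets. Among those targets are genes for the storage of fatty acids in lipid droplets, for trimming mitochondrial work and for handling acid, and several are used as markers of hypoxia in tumours.

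EV libraries held 3259453 to 7001767 reads and cell libraries 18059381 to 23400813. Values below are the deposited ones, read counts that the authors divided by a factor per library, and are called normalised reads. In these units 1 read was worth 1.34 to 2.52 in EV libraries and 0.481 to 0.551 in cell libraries, so the 3 reads that a count of 0 may hide come to 4.01 to 7.57 units in EV libraries and 1.44 to 1.65 in cell libraries. Such limits cover counting error only. The vector genes EIF4E, YTHDF1 and CD9 together took 19.97% to 24.4% of the reads in EV libraries and 5.89% to 7.28% in cell libraries. Of 7 markers of HEK293 cells 6 were matched by name, and all 6 averaged at least 10 in every group. They summed to 7504 to 8156 in hypoxia EVs, 10556 to 15838 in normoxia EVs, 4258 to 4494 in hypoxia cells and 4991 to 5670 in normoxia cells. Most of the EV sums was NEFM (means of 5757 in hypoxia EVs and 10415 in normoxia EVs), while VIM was lower in EVs than in cells. Protein-coding genes with a cell mean of at most 20, called near silent below, stood at 16.9 ± 0.561 units per kilobase of exon in hypoxia EVs, 7.80 ± 3.52 in normoxia EVs, 1.81 ± 0.139 in hypoxia cells and 1.44 ± 0.1201 in normoxia cells (SD, n = 3 each). They were picked for low values in the cells, so only the difference between the EV groups is free of that choice. Summed by list, markers of other lineages were higher in EVs, as that level was. The epithelial markers CDH1 and EPCAM were exceptions in normoxia, averaging 45.0 and 8.76 in EVs, against 45.2 and 9.47 in cells. Of 10 blood and immune markers, 9 averaged at least 10 in hypoxia EVs, 7 in normoxia EVs and 2 in either cell group, and their sums were 363 to 492, 209 to 332, 53.5 to 79.5 and 63.4 to 75.5 in the same order. Of 7 liver and plasma protein markers the counts were 5, 5, 2 and 1 (sums of 516 to 671, 112 to 307, 34.0 to 72.5 and 38.7 to 54.6), of 4 epithelial markers 4, 3, 1 and 1 (275 to 434, 71.4 to 205, 29.4 to 43.8 and 56.8 to 62.9), and of 3 endothelial and fibroblast markers matched 3, 3, 1 and 1 (908 to 1009, 497 to 836, 267 to 351 and 293 to 362). None of these markers was at 0 in all libraries of a group. Their part in the EV results below was not tested.

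RefSeq promoter windows of 300 bases, 250 before and 50 after the start site on GRCh38.p14, were held for 8 of the 10 genes (PLIN2, CA9, FAM162A, HIGD1A, ANKRD37, PPFIA4, WSB1 and RORA). Letters ACGTG or GCGTG were searched on both strands, so that CACGT and CACGC on the gene's strand count as well, and a CACGTG counts as both ACGTG and its reverse. They stood in 7 of the 8 windows, RORA's being the exception, and in 48.4% of all 35116 windows of that length. ACGTG on either strand stood in the same number, 7 of 8, against 21.4% of all windows. A match is a run of letters and not a bound site. The windows of PLIN2, ANKRD37 and RORA lie at a start inside the span that GENCODE gives to the gene, so other starts of these genes were not searched. The windows below show PPFIA4 and ANKRD37, which rose most in hypoxia cells among the genes with a window, with HIGD1A, which fell, and PLIN2, which did not pass the test. Capitals mark the searched letters.
PPFIA4, chr1:203026241-203026540, plus strand: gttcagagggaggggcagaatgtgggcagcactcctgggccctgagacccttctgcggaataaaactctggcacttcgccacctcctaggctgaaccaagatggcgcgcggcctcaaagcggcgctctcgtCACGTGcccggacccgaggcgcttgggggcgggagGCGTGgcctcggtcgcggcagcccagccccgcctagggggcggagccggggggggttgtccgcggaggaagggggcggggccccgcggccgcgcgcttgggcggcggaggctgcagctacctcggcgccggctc
ANKRD37, chr4:185396591-185396890, plus strand: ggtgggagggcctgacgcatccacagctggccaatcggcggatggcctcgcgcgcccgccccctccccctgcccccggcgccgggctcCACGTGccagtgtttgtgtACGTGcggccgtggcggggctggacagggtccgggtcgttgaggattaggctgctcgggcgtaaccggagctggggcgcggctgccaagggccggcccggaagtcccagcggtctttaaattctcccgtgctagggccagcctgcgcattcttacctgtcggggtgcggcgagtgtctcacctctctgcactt
HIGD1A, chr3:42804441-42804740, minus strand: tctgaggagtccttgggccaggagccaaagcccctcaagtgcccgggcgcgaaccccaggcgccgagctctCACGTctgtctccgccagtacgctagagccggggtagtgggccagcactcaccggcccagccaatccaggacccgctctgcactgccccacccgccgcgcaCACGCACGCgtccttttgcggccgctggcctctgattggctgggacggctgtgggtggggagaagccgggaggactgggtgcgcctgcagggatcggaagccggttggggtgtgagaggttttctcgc
PLIN2, chr9:19127443-19127742, minus strand: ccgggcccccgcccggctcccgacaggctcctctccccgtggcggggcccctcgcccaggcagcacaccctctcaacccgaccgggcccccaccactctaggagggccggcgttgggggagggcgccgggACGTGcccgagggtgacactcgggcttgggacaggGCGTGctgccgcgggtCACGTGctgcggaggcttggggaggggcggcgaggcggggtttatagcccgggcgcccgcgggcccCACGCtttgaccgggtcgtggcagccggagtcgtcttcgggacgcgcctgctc
ANKRD37 held 3 matches and PPFIA4 3, against 3 in HIGD1A and 5 in PLIN2. PPFIA4, ANKRD37 and PLIN2 each held 1 palindromic CACGTG, whose first base lay 119, 162 and 69 bases before the start site, and HIGD1A held none. Genes that rose in the cells and genes that did not thus both carried the letters.

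In the cells, most of these genes were higher in hypoxia, and the rises ran from 1.5-fold for RORA to 5.22-fold for ANKRD37. Of the 9 genes that averaged at least 10 over the cell libraries, 7 rose (HILPDA, ANKRD37, PPFIA4, NDRG1, FAM162A, WSB1 and RORA), 1 fell (HIGD1A) and 1, PLIN2, did not pass. Over all 17260 genes tested 30.4% were called, 8.01% higher and 22.4% lower (limma, Benjamini-Hochberg adjusted p under 0.05). The split over all genes was 1383 higher and 3871 lower, and with equal totals 2304 and 2043, while the calls of the 9 genes kept their directions. The 9 genes had a median log2 fold change of 0.86, and all genes tested one of -0.07. Fold changes are on log2(value + 1), which understates the change of low genes. In bulk libraries a larger share of responding cells and more RNA per cell cannot be told apart.

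The lipid droplet genes differed from each other. HILPDA encodes a small droplet protein that inhibits the triglyceride lipase ATGL, and lies on chromosome 7 from 128455849 to 128458418 on the plus strand (ENSG00000135245, GRCh38, GENCODE release 29). It stood at 565, 496 and 462 normalised reads in hypoxia cells, against 91.6, 101 and 108 in normoxia cells. The lowest hypoxia library lay more than 4 times above the highest normoxia one. The log2 fold change was 2.32 (SE 0.12, limma adjusted p = 3.63e-25), larger than that of 99.9% of all genes tested. PLIN2, the perilipin that coats droplets in most cell types (ENSG00000147872, chromosome 9, 19108375 to 19149290, minus strand), stood at 239.6, 230.2 and 256 in hypoxia cells, against 226, 319 and 252 in normoxia cells. The groups overlapped, and normoxia replicate 2 was the highest of the 6. Its log2 fold change was -0.12 with a 95% confidence interval of -0.36 to 0.12 (limma adjusted p = 0.496), and the value was 0.02 without that library and 0.00 with equal totals. The upper end of the interval lies below the log2 fold change of RORA, 0.58, the smallest among the genes that rose.

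CA9, the cell-surface carbonic anhydrase much used as a hypoxia marker (ENSG00000107159, chromosome 9, 35673856 to 35681159, plus strand), was close to absent from these cells. It had 12, 12 and 6 reads in hypoxia cells (6.49, 6.18 and 3.15 normalised reads), against 2, 3 and 0 in normoxia cells (1.01, 1.65 and 0). The groups did not overlap, but the mean was under 10, so the gene was not tested in the main fit. Without the filter its log2 fold change was 1.80 (SE 0.87, limma adjusted p = 0.261). The gene shares 643 exon bases with ARHGEF39 on the opposite strand, which averaged 253 in hypoxia cells and 318 in normoxia cells. The strand setting of the count is unknown, so the reads given to CA9 and ANKRD37 are uncertain.

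The mitochondrial genes moved apart. FAM162A encodes a mitochondrial protein linked to cell death under hypoxia (ENSG00000114023, chromosome 3, 122384176 to 122412334, plus strand). It stood at 903, 839 and 831 in hypoxia cells, against 407, 492 and 522 in normoxia cells, a log2 fold change of 0.86 (SE 0.08, limma adjusted p = 6.36e-13). The groups were well apart in every library. HIGD1A encodes an inner membrane protein that acts on respiratory supercomplexes (ENSG00000181061, chromosome 3, 42784298 to 42804531, minus strand). It went against the list, with 494, 477 and 474 in hypoxia cells, against 584, 696 and 707 in normoxia cells. Every hypoxia library was below every normoxia library, and the log2 fold change was -0.45 (SE 0.09, limma adjusted p = 2.17e-05). As 22.4% of all genes fell, it was also set against the median of all genes tested, from which it differed by -0.39, and it stayed lower with equal totals (-0.33, limma adjusted p = 0.00243). HIGD1A has 17 annotated pseudogenes, and how reads were shared with them is unknown; the highest of them averaged 3.53 over the 12 libraries.

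The genes of signalling, scaffolding and regulation all rose. PPFIA4, liprin alpha 4, a scaffold of presynaptic and adhesion complexes (ENSG00000143847, chromosome 1, 203026498 to 203078740, plus strand), stood at 1355, 1388 and 1362 in hypoxia cells, against 358, 327 and 267 in normoxia cells. Every hypoxia library lay far above every normoxia library, and the log2 fold change was 2.11 (SE 0.09, limma adjusted p = 1.89e-31). ANKRD37, an ankyrin repeat protein (ENSG00000186352, chromosome 4, 185396021 to 185400628, plus strand), stood at 46.5, 65.9 and 64.5 in hypoxia cells, against 16.1, 8.82 and 7.70 in normoxia cells. It is low, with 86 to 128 reads in hypoxia cells and 16 to 32 in normoxia cells, and its log2 fold change of 2.39 had the widest error of the 9 (SE 0.36, limma adjusted p = 1.66e-07). It shares 909 exon bases with UFSP2 on the opposite strand, which averaged 89.1 in hypoxia cells and 124 in normoxia cells, the other direction.

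NDRG1, a stress-induced protein of differentiation and lipid traffic (ENSG00000104419, chromosome 8, 133237171 to 133302022, minus strand), stood at 2384, 2232 and 2299 in hypoxia cells, against 1150, 1133 and 1145 in normoxia cells. It had the most reads of the 10 in cells, and its log2 fold change was 1.01 (SE 0.06, limma adjusted p = 1.38e-21). WSB1, a substrate receptor of a ubiquitin ligase (ENSG00000109046, chromosome 17, 27294076 to 27315926, plus strand), stood at 1123, 1172 and 1040.0 in hypoxia cells, against 659, 772 and 753 in normoxia cells. The log2 fold change was 0.61 (SE 0.08, limma adjusted p = 1e-09). RORA, a nuclear receptor of the circadian clock (ENSG00000069667, chromosome 15, 60488284 to 61229319, minus strand), stood at 292, 322 and 351 in hypoxia cells, against 197, 241 and 206 in normoxia cells. Its log2 fold change was 0.58 (SE 0.12, limma adjusted p = 4.67e-05). For all 3 genes every hypoxia library was above every normoxia library. Groups stood apart in this way, in either direction, for 8 of the 9 genes tested and for 40.3% of all genes tested. All 8 calls in cells held when any one library was left out. In a fit of all 12 libraries 3 of them remained (HILPDA, PPFIA4 and NDRG1), among 84 of 24171 genes called, and the cause was not tested.

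**Figure D1:**
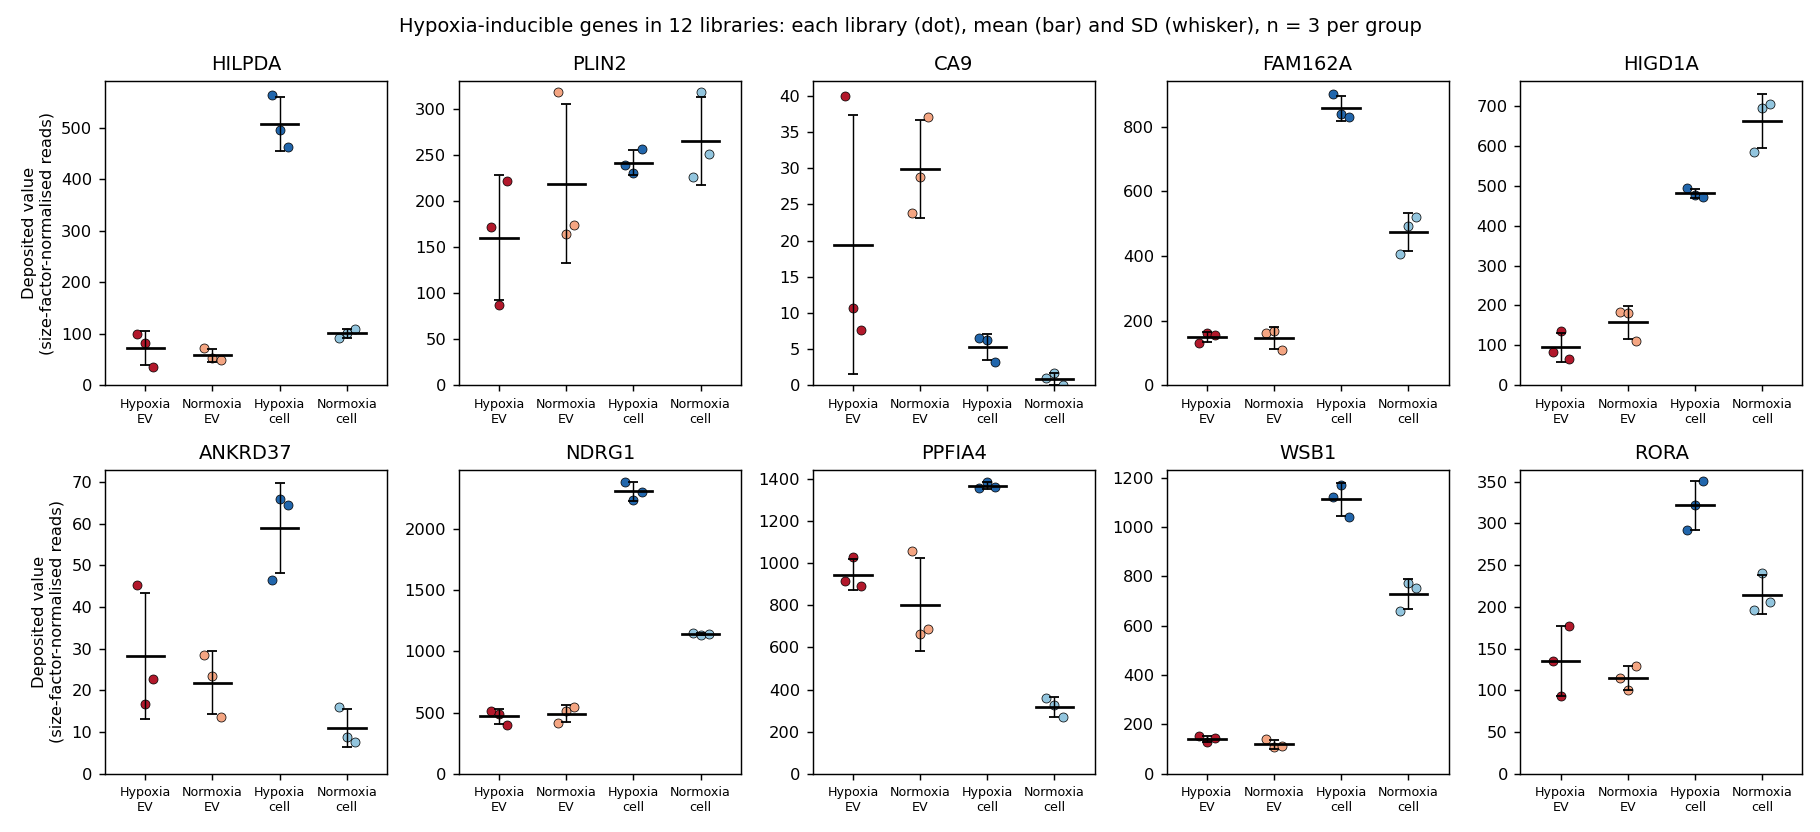
Normalised reads (linear axis from 0) of the 10 genes in hypoxia EVs, normoxia EVs, hypoxia cells and normoxia cells; dots are libraries, bars means and whiskers SD (n = 3 each). HILPDA, ANKRD37, NDRG1, PPFIA4, FAM162A, WSB1 and RORA stand apart between hypoxia and normoxia cells, while hypoxia and normoxia EVs overlap for all 10 genes.

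Per kilobase of exon, the order of the genes changed with hypoxia. In hypoxia cells HIGD1A (287 units per kilobase), HILPDA (245), NDRG1 (235) and FAM162A (226) led, followed by PPFIA4 (141), WSB1 (129), PLIN2 (47.6), ANKRD37 (22.9), RORA (18.9) and CA9 (3.16). In normoxia cells the order was HIGD1A (395), FAM162A (125), NDRG1 (116), WSB1 (84.6), PLIN2 (52.2), HILPDA (48.5), PPFIA4 (32.7), RORA (12.6), ANKRD37 (4.21) and CA9 (0.531). HILPDA thus stood second in hypoxia cells and sixth in normoxia cells. These lengths join all annotated exons, so they overstate the transcript of genes with many alternative exons, RORA above all at 17040 bases.

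The wider neighbourhood of these genes in the cells was mixed outside the HIF targets themselves. Over all genes tested in cells, 8.01% rose and 22.4% fell. Of 22 other intracellular HIF targets, 20 rose and none fell (median log2 fold change 0.92). The mitophagy receptor gene BNIP3 averaged 2729 ± 26.4 in hypoxia cells and 859 ± 30.6 in normoxia cells (SD, n = 3 each), and the collagen prolyl hydroxylase gene P4HA1 1476 ± 97.3 in hypoxia cells and 388 ± 16.8 in normoxia cells. The clock repressor gene BHLHE40 (2.11) and CITED2 (1.67), which encodes a competitor of HIF for p300, rose on the log2 scale too. Lipid droplet and triglyceride genes went both ways: of 26 tested of 33 listed, 4 rose and 5 fell (median 0.00). PLIN4, another perilipin gene, averaged 64.1 ± 7.03 in hypoxia cells and 20.4 ± 7.90 in normoxia cells (SD, n = 3 each), and rose by 1.66 on the log2 scale (SE 0.30, limma adjusted p = 1.08e-05). VLDLR, a lipoprotein receptor gene and known HIF target, rose by 0.76. GPAM, the acyltransferase that opens triglyceride synthesis, averaged 341 ± 14.3 in hypoxia cells and 539 ± 43.6 in normoxia cells (SD, n = 3 each), a log2 difference of -0.66 (SE 0.09, limma adjusted p = 5.76e-08), and AUP1, a droplet and ER protein gene, fell by 0.32.

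Relatives of the 10 genes went both ways. Over all genes tested in cells, 8.01% rose and 22.4% fell, and the counts of pH regulation genes below lie near those shares. Of 17 relatives tested of 24 listed, 3 rose and 5 fell (median -0.04). RORB, the sister receptor gene of RORA, averaged 118 ± 19.4 in hypoxia cells and 310.4 ± 33.4 in normoxia cells (SD, n = 3 each). Its log2 fold change of -1.39 (SE 0.14, limma adjusted p = 4.76e-13) was opposite in sign to that of RORA. NDRG4 rose by 0.52 and CA2, a cytosolic carbonic anhydrase gene, fell by 0.83. Of 12 pH regulation genes tested of 13 listed, 1 rose (the monocarboxylate transporter gene SLC16A4, 0.51, a call that ended without hypoxia cell replicate 1, at 0.35, or normoxia cell replicate 2, at 0.45) and 3 fell, among them ATP6V1A, a proton pump subunit gene (-0.50). Of 12 genes of oxygen sensing, 2 rose, the HIF prolyl hydroxylase genes EGLN1 (1.01) and EGLN3 (0.78), and 3 fell, HIF1A (-0.46) and EPAS1 (-0.33), the HIF alpha subunit genes, among them. The call of EPAS1 ended with equal totals.

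In the EVs none of the 10 genes passed the test between hypoxia and normoxia. The limma count was 0 of 10 in either direction, against 12.3% of all 27904 genes tested (5.68% higher, 6.62% lower), and it was 0 at an unadjusted p under 0.05 (9688 of all genes), 0 with edgeR (3503 of all genes) and 0 with DESeq2 (4542 of all genes). For none of the 10 did the groups stand apart, which they did for 37.9% of all genes tested. The 10 genes had a median log2 fold change of 0.12 and all genes tested one of 0.60. The split over all genes was 1586 higher and 1846 lower, 4201 and 188 with equal totals, and 1183 and 3218 with TMM. The scaling moves the medians too: with equal totals the medians were 0.68 and 1.13, with TMM factors -0.07 and 0.42. Relative to the median of all genes, the 10 genes lay at -0.48, -0.45 and -0.48 under the authors' factors, equal totals and TMM. That gap depends on the filter. Over the 15260 genes averaging at least 50 in the EV libraries the median was -0.15. PLIN2 and HIGD1A lay below it, and the others that passed this filter lay above it. ANKRD37 and CA9 did not reach that mean.

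HILPDA stood at 98.9, 82.2 and 35.3 normalised reads in hypoxia EVs, against 71.4, 52.2 and 48.9 in normoxia EVs. Hypoxia replicate 3, the shallowest of all libraries, was the lowest of the 6, and the other hypoxia libraries were the highest. These values rest on 74, 54 and 14 reads in hypoxia EVs, against 30, 29 and 25 in normoxia EVs. The log2 fold change was 0.22 with a 95% confidence interval of -0.93 to 1.36 (limma adjusted p = 0.786), which leaves out the 2.32 seen in the cells. PPFIA4 stood at 915, 1031 and 890.3 in hypoxia EVs, against 1059, 661 and 688 in normoxia EVs. Normoxia replicate 1 was the highest of the 6, and without it the groups would not overlap. This gave a log2 fold change of 0.27 with an interval of -0.20 to 0.74 (limma adjusted p = 0.391). With equal totals it was the only one of the 10 to pass, at 0.83 (limma adjusted p = 0.0112), under which scaling all genes tested had a median of 1.13.

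NDRG1 stood at 514, 487 and 401 in hypoxia EVs, against 412, 515 and 545 in normoxia EVs, with full overlap. This gave a log2 fold change of -0.07 with an interval of -0.56 to 0.43 (limma adjusted p = 0.848), and the sign turned with equal totals (0.50, limma adjusted p = 0.117). FAM162A stood at 131, 159.9 and 154 in hypoxia EVs, against 162, 168 and 107 in normoxia EVs, and WSB1 at 152, 129 and 144 in hypoxia EVs, against 140.3, 108 and 111 in normoxia EVs. RORA stood at 135, 92.9 and 177 in hypoxia EVs, against 114, 101 and 129 in normoxia EVs. In all 3 genes the groups overlapped, with log2 fold changes of 0.05 (-0.67 to 0.77), 0.25 (-0.49 to 0.99) and 0.19 (-0.60 to 0.98); the intervals of WSB1 and RORA hold the fold changes of the cells, and that of FAM162A, which was 0.86 in cells, does not.

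HIGD1A was the gene nearest to a change in EVs, with a value below 0 as in cells. It stood at 84.2, 135.5 and 65.6 in hypoxia EVs, against 183, 180.2 and 109 in normoxia EVs. The hypoxia libraries were mostly lower, but hypoxia replicate 2 lay above normoxia replicate 3. Its log2 fold change was -0.75 with an interval of -1.58 to 0.08 (limma adjusted p = 0.18), which became -0.19 with equal totals. In the fit of all 12 libraries it passed (limma adjusted p = 0.0271), as did 8238 of all 24171 genes tested, against 3432 of 27904 in the EV libraries alone. That fit shares its spread between EVs and cells, although the EVs varied more. PLIN2 stood at 172, 86.8 and 222 in hypoxia EVs, against 319, 164 and 174 in normoxia EVs, a log2 fold change of -0.48 (-1.25 to 0.29), and 0.08 with equal totals. ANKRD37 had 34, 11 and 9 reads in hypoxia EVs, against 12, 13 and 7 in normoxia EVs, and CA9 had 30, 7 and 3 in hypoxia EVs, against 10, 16 and 19 in normoxia EVs. With these few reads their intervals spanned -1.52 to 2.10 and -2.86 to 1.01, so that changes of those sizes are not excluded. The parts of depth and of spread between libraries in that width were not tested.

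**Figure D2:**
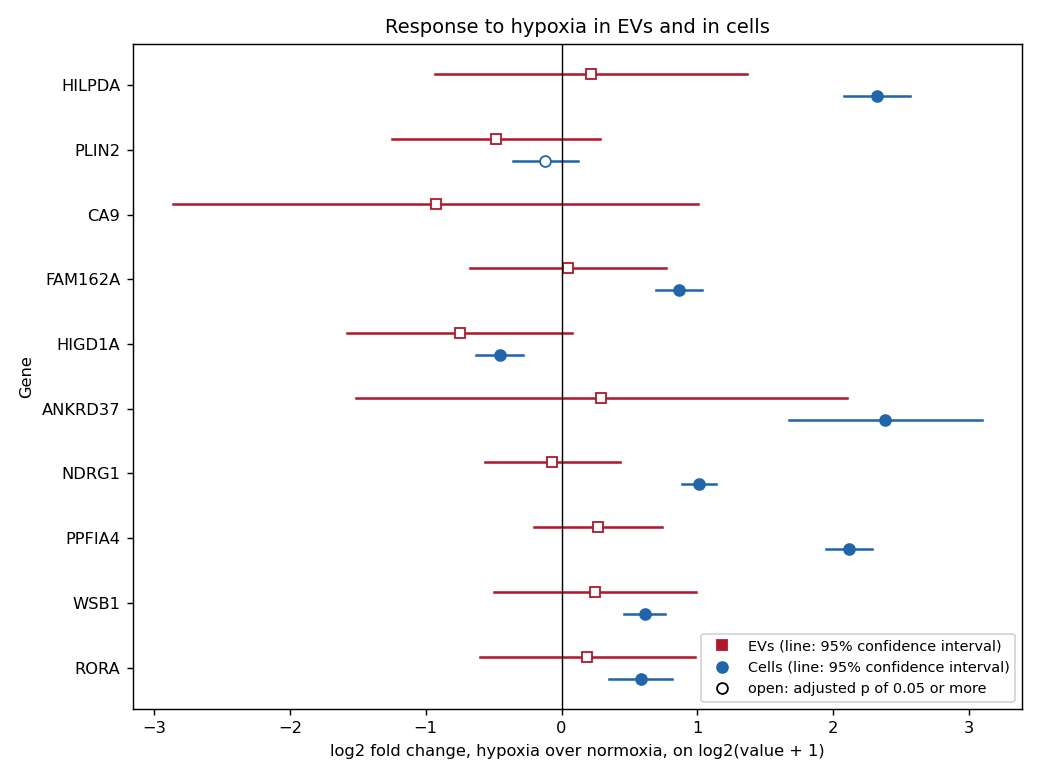
Log2 fold change of hypoxia over normoxia on log2(value + 1) for each gene, in EVs (squares) and in cells (circles), with 95% confidence intervals as lines; filled symbols passed at an adjusted p of 0.05. In cells 8 genes passed and CA9 was not tested; in EVs all 10 intervals cross 0.

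Several of the EV values lay at the level of the near-silent genes. Multiplying each library's near-silent level by a gene's exon length gives the value such a gene would have there. That length joins all annotated exons (17040 bases for RORA, 8602 for WSB1) and may overstate the transcript. The level may thus be set too high for such genes, here and in the subtraction below. PPFIA4 stood at 5.25 to 6.29 times that value in hypoxia EVs and at 6.07 to 22.8 times in normoxia EVs. NDRG1 (2.34 to 3.20 times in hypoxia EVs, 4.75 to 8.74 in normoxia EVs), FAM162A (2.11 to 2.50 and 2.43 to 8.90) and HIGD1A (2.24 to 4.79 and 5.60 to 22.8) were above it in every EV library. PLIN2 (1.01 to 2.50 in hypoxia EVs, 2.93 to 13.1 in normoxia EVs) was above it as well, though barely in 1 hypoxia library, and HILPDA (0.977 to 2.92 and 2.02 to 7.20) was below it in 1 hypoxia EV library. WSB1 stood close to it, at 0.891 to 1.08 times in hypoxia EVs and 1.11 to 3.41 in normoxia EVs. ANKRD37 was at or below the near-silent level in 2 of 3 hypoxia EV libraries and 1 of 3 normoxia EV libraries, CA9 in 2 and 0, and RORA in 3 and 2. In cells 9 of the genes were above it in every library, from 2.30 times for ANKRD37 in normoxia cells upwards, and CA9 was at or below it in all 3 normoxia cell libraries. CA9 itself met the limit on the cell mean by which near-silent genes were picked, so its low place in cells follows from that choice.

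**Figure D3:**
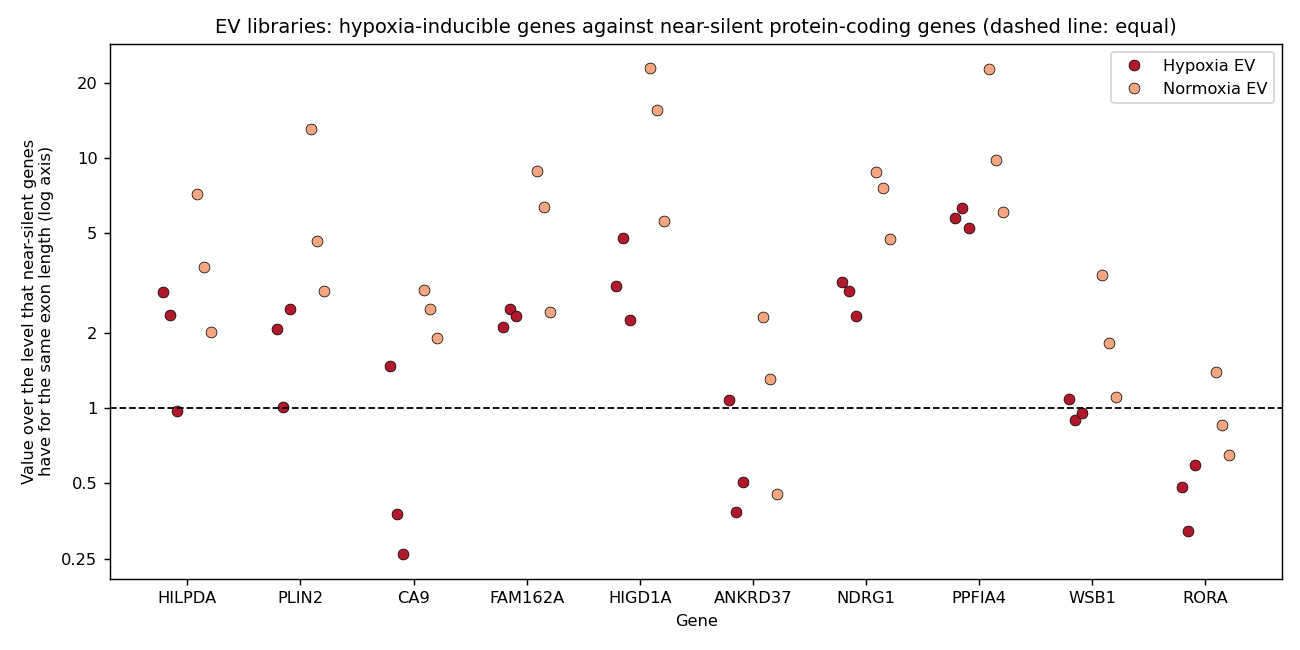
Value of each gene in each EV library over the value that near-silent genes have for the same exon length (log axis; dashed line, equal), for hypoxia EVs (left in each pair) and normoxia EVs. PPFIA4, HIGD1A, NDRG1, FAM162A and PLIN2 lie above the line in all 6 libraries, and RORA lies below it in 5.

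With the near-silent level subtracted from every value, and values below it set to 0, the cell response stayed in place. The EV values moved down. In cells 8 of the 9 genes tested passed again, with HILPDA at 2.36 and PPFIA4 at 2.16. In EVs 9 of the 10 log2 fold changes were then below 0 (median -1.5, against -0.22 over all genes tested), PPFIA4 being the exception at 0.15 (SE 0.25), and limma called 0 of the 10, as of all 27904 genes. At an unadjusted p under 0.05 it gave 1 of the 10, lower, and 6664 of all genes. NDRG1 stood at -0.47 (SE 0.20), HILPDA at -1.43 (SE 1.81) and WSB1 at -4.06 (SE 1.57). WSB1 was set to 0 in 2 of 3 hypoxia EV libraries and HILPDA in 1, so these 2 sizes depend on the pseudocount.

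**Figure D4:**
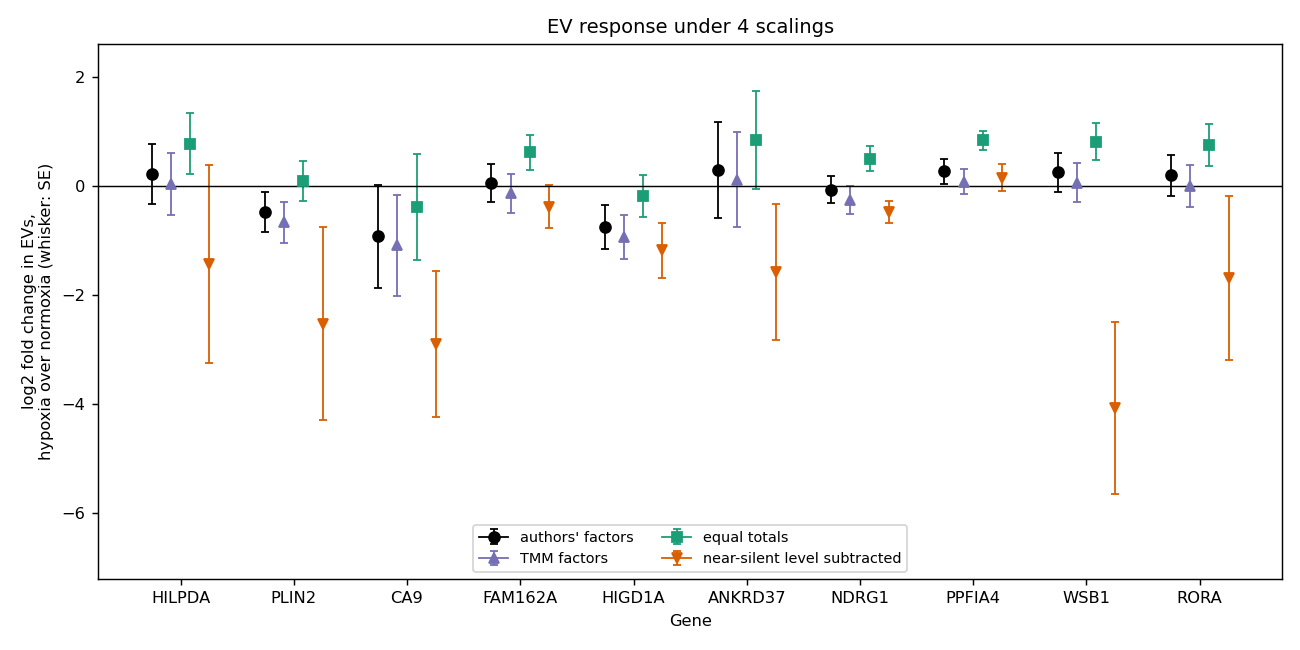
Log2 fold change of hypoxia over normoxia in EVs for each gene under the authors' factors, TMM factors, equal totals and with the near-silent level subtracted; whiskers are SE from limma. Equal totals move every gene up, PPFIA4 to 0.83, and subtraction moves every gene down, with SE of up to 1.81 for the genes that lie near the subtracted level.

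The difference between the EV and the cell response was tested directly. It was negative for all 10 genes, meaning a smaller rise or a larger fall in EVs, and passed for 3 of them, against 2.31% of all 24171 genes tested, 1.87% lower and 0.443% higher. The split over all genes was 107 higher and 452 lower, and 475 and 151 with equal totals. PPFIA4 differed by -1.85 on the log2 scale (SE 0.25, limma adjusted p = 0.00171), HILPDA by -2.11 (SE 0.45, limma adjusted p = 0.0243) and NDRG1 by -1.08 (SE 0.21, limma adjusted p = 0.0166). These errors come from a spread shared by EV and cell libraries, although the EVs varied more. For HILPDA and NDRG1 they are smaller than the SE of the EV response alone (0.56 and 0.24). For PPFIA4 the SE is larger than that of the EV response alone (0.23). CA9 had the largest difference of the 10, -2.72, with the widest error (SE 1.13, 95% confidence interval -5.09 to -0.36, limma adjusted p = 0.179). ANKRD37 differed by -2.09 (SE 0.78, limma adjusted p = 0.138) and FAM162A by -0.81 (SE 0.28, limma adjusted p = 0.113). FAM162A passed with TMM, edgeR and DESeq2, and both FAM162A (-1.02) and ANKRD37 (-2.38) passed without normoxia EV replicate 3. For WSB1 (-0.37, 95% confidence interval -0.88 to 0.15), RORA (-0.39, -1.10 to 0.31), PLIN2 (-0.36, -1.24 to 0.52) and HIGD1A (-0.30, -1.03 to 0.44) the interval crossed 0. The call of PPFIA4 held without any one of the 12 libraries. Those of HILPDA and NDRG1 ended when any one of the 6 cell libraries was left out (limma adjusted p of 0.0593 to 0.092), and with equal totals (0.0507 and 0.117). That of HILPDA also ended with no filter (limma adjusted p = 0.0622) and with subtraction (-3.79, limma adjusted p = 0.233). With equal totals 4 of the 10 differences turned positive (PLIN2, HIGD1A, WSB1 and RORA, 0.045 to 0.14).

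Of the 22 other intracellular HIF targets, 9 had a smaller response in EVs and none a larger one (median difference -1.04, against 0.23 over all genes tested). With a filter of 50 the median over all genes tested was -0.16. Over all genes tested 1.87% were called lower in this difference and 0.443% higher. DDIT4, an inhibitor gene of mTOR signalling, averaged 235 ± 61.5 in hypoxia EVs and 322 ± 93.8 in normoxia EVs, but 765 ± 36.6 in hypoxia cells and 189 ± 34.4 in normoxia cells (SD, n = 3 each). Its difference was -2.47 (SE 0.32, limma adjusted p = 0.00154), and those of CITED2, BNIP3L and EGLN1 were -1.98, -1.59 and -1.47. Without hypoxia cell replicate 2 the calls of BNIP3L and EGLN1 ended, at -1.55 and -1.39. In EVs 0 of these 22 and 0 of 31 lipid droplet and triglyceride genes passed between hypoxia and normoxia with limma, edgeR or DESeq2. At an unadjusted p under 0.05 limma gave 1 and 5 of them, all higher in hypoxia EVs. VLDLR stands in both lists and was counted in each. For the 22 HIF targets edgeR gave 3 and DESeq2 4 at that level, of which 1 was higher with either tool, and for the lipid genes they gave 3 and 2, all higher. Over all genes tested in EVs, limma called 5.68% higher in hypoxia and 6.62% lower. Relatives of the 10 genes went both ways in EVs, with 3 higher and 1 lower of 23. Among them were the carbonic anhydrase gene CA4 (2.69) and the liprin genes PPFIBP2 (1.19) and PPFIA1 (-0.95). Of 13 pH regulation genes 1 was higher and 2 lower, and of 12 genes of oxygen sensing 1 was higher, HIF3A (1.32), and 4 lower, among them VHL (-0.79) and the coactivator gene EP300 (-0.91). The calls of these 6 named genes in EVs ended without normoxia EV replicate 2, without any one hypoxia EV library, and with subtraction. Those of PPFIBP2, EP300 and VHL also ended without normoxia EV replicate 1 (limma adjusted p of 0.0709, 0.0632 and 0.115).

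Set against cells of the same condition, EVs held less of most of these RNAs. In hypoxia 8 of 10 were lower in EVs and none higher by limma, against 69.7% called among all 24171 genes tested, 29.1% lower and 40.6% higher. The median log2 fold change of the 10 was -1.80 and that of all genes 0.43, a gap of -2.23 that was also -2.23 with equal totals and -2.24 with TMM. With TMM the split over all genes was 8029 higher and 9126 lower. Shares and gap depend on the filter as well. Of 13674 genes averaging at least 50 over the 12 libraries, 6679 were lower in hypoxia EVs and 3085 higher, with a median of -0.50. Being lower in EVs was thus common among genes of higher level. WSB1 was lowest against cells, at -2.96 (SE 0.17, limma adjusted p = 9.77e-11), with a mean of 142 in hypoxia EVs and 1112 in hypoxia cells. HILPDA followed at -2.92 (SE 0.32, limma adjusted p = 2.1e-07), FAM162A at -2.53, HIGD1A at -2.39, NDRG1 at -2.31 and RORA at -1.29. Subtraction of the near-silent level moved the genes near that level most, WSB1 to -8.87, RORA to -8.18 and HILPDA to -5.10, so that the sizes and their order depend on it. RORA was at or below that level in all 3 hypoxia EV libraries, WSB1 in 2 and HILPDA in 1. Such values were floored, so the sizes after subtraction rest largely on the pseudocount and are not measured fold changes. PPFIA4 had the smallest called difference, at -0.54 (SE 0.18, limma adjusted p = 0.0114), and it did not pass with equal totals (-0.27, limma adjusted p = 0.11). PLIN2 stood at -0.69 with limma adjusted p = 0.0457, a call that ended under DESeq2, equal totals, no filter and the subtraction, and without hypoxia EV replicate 2 or any one cell library. ANKRD37 (-1.14) and CA9 (1.4) did not pass, although the groups stood apart for all 10 genes, as they did for 78.1% of all genes tested. ANKRD37 passed as lower with TMM (-1.61, limma adjusted p = 0.0145), subtraction (-5.07, limma adjusted p = 0.00186) and a pseudocount of 5 (limma adjusted p = 0.0468), and without hypoxia EV replicate 1 (-1.53) or normoxia EV replicate 1 or 3 (-1.14). CA9 passed as higher with DESeq2 (1.95, adjusted p = 0.0269) and was at -0.23 with subtraction. Among other genes P4HA1 (-4.06), BNIP3L (-3.13) and the fatty acid activating enzyme gene ACSL3 (-3.14) were lower in hypoxia EVs, and 20 of the 22 other HIF targets were lower and none higher.

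In normoxia 6 genes were lower in EVs and 2 higher, against 56.3% called among all genes tested, 27.2% lower and 29% higher, a split of 5687 higher and 8021 lower with TMM. Of 13674 genes averaging at least 50 over the 12 libraries, 5999 were lower in normoxia EVs and 3383 higher, with a median of -0.34. The groups stood apart for 8 of the 10 and for 58% of all genes tested. WSB1 (-2.60), HIGD1A (-2.10), FAM162A (-1.71), NDRG1 (-1.23), RORA (-0.90) and HILPDA (-0.81) were lower. The call of HILPDA (SE 0.32, limma adjusted p = 0.0367) ended without normoxia EV replicate 2 or 3 or any one cell library, with no filter (limma adjusted p = 0.0772) and with subtraction (-1.31, SE 1.29, limma adjusted p = 0.453). Subtraction moved RORA to -5.88 and WSB1 to -4.20. RORA was floored there in 2 of 3 normoxia EV libraries, so its size depends on the pseudocount. PPFIA4 was higher, at 1059, 661 and 688 in normoxia EVs, against 358, 327 and 267 in normoxia cells (log2 fold change 1.31, SE 0.18, limma adjusted p = 4.25e-06). The lowest EV library was above the highest cell library. With 352 to 445 reads per normoxia EV library it was well above the counting limit, and the call held with the near-silent level subtracted (1.22, limma adjusted p = 0.00134). CA9 was higher as well, at 23.8, 28.8 and 37.1 in normoxia EVs, against 1.01, 1.65 and 0 in normoxia cells (log2 fold change 4.12, SE 0.80, limma adjusted p = 0.000237). The size depends on the pseudocount, being 4.67 with 0.5 and 2.56 with 5. It rests on 10, 16 and 19 reads in EVs, where the near-silent level for its length was 8.0 to 19.5 normalised reads. ANKRD37 (0.95) and PLIN2 (-0.33) did not pass. Of the 22 other HIF targets 14 were lower in normoxia EVs and 3 higher, P4HA1 (-2.76) among the lower, and ACSL3 (-3.28) was lower as well.

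The order of the 4 groups by mean level separates the genes. For HILPDA, NDRG1, FAM162A, WSB1 and RORA hypoxia cells were highest and normoxia cells next, with both EV groups below; hypoxia cells and normoxia cells did not overlap. HILPDA in hypoxia EVs (35.3 to 98.9) overlapped normoxia cells (91.6 to 108), while the other 4 genes were lower in every EV library than in every cell library. For PPFIA4 and ANKRD37 the order was hypoxia cells, hypoxia EVs, normoxia EVs and normoxia cells. Normoxia EVs and normoxia cells did not overlap for PPFIA4 and did for ANKRD37. HIGD1A was highest in normoxia cells, then hypoxia cells, then the overlapping EV groups. For PLIN2 every neighbouring pair in the order overlapped. CA9 alone was higher in both EV groups than in both cell groups, though in 2 of 3 hypoxia EV libraries below the near-silent level.

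HILPDA's pattern over the 12 libraries was compared with that of 10258 protein-coding genes averaging at least 100, as a description. The closest by Pearson's r of log2(value + 1) were GPC1 (0.958), a cell-surface proteoglycan gene, BNIP3 (0.957), SLC2A1 (0.948), the glucose transporter gene, EGLN1 (0.925) and ALDOA (0.925), a glycolytic enzyme gene. Among the other 9 genes NDRG1 (0.910) stood 11th, FAM162A (0.862) 36th and WSB1 (0.817) 76th, followed by RORA (0.787), while HIGD1A (0.616), PPFIA4 (0.447) and PLIN2 (0.262) were far down the order, and ANKRD37 (0.635) and CA9 (-0.316) were under the level compared. The libraries fall into EVs and cells, so these values carry that split as well as the response to hypoxia.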

How the data were processed

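The series table held 57773 human gene IDs in 12 libraries, 3 in each of 4 groups taken from the labels. Its values are a signal, read counts that the authors divided by a factor for each library, and every value returned to a whole read count within 0.01. Per the submitters' processing notes, Bowtie 0.12.2, DESeq2 1.30.1 and hg38/GRCh38 were used; the counting tool and its strand setting are not named there. Of the IDs, 9.41% matched no entry of GENCODE release 29, which gave positions and exon lengths.

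Differences were tested with limma 3.58.1 (R 4.3.3, trend, two-sided) on log2(value + 1) for genes averaging 10 or more over the fitted libraries, and p-values were Benjamini-Hochberg adjusted over all of them and called under 0.05. Each hypoxia comparison used its own 6 libraries, and EV against cell comparisons and the difference of responses used all 12. Fits of all 12 share a spread estimate per gene between EVs and cells, although these differ in spread. Alternatives were pseudocounts of 0.5 and 5, a mean of 50 or no filter, TMM factors, equal totals, subtraction of the near-silent level (times exon length), edgeR 4.0.16 and DESeq2 1.42.0 on the recovered counts, a replicate block, all 12 libraries, and each library left out. Subtraction left no value negative, as those below the near-silent level were floored. The fits were tested on simulated data. The 10 genes, the lists and the tests were chosen with earlier results of these data known. All 10 genes are given in each comparison. The lists share some genes, so their counts are not separate from each other. Genes of the lists are named from among those with the smallest p (up to 4 per list and comparison); not all of these are reported here. Replicate pairs within a group differed by more than sampling noise (chi-square per degree of freedom of 5.05 to 13.4 over 12 pairs). All libraries were kept. That excess is no measure of their quality and does not show whether replicates were separate cultures. EV libraries are shallower than cell libraries, and their intervals are wider.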

Additional observations from a re-analysis of the deposited data

Results flagged for a closer look

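The hypoxia response in EVs differed from that in cells for 3 of the 10 genes and for 4 of the other HIF targets named, in each case by the limma test of the difference itself. On the log2 scale PPFIA4 differed by -1.85, HILPDA by -2.11 and NDRG1 by -1.08. DDIT4 differed by -2.47, CITED2 by -1.98, BNIP3L by -1.59 and EGLN1 by -1.47. All 7 rose in cells, and none passed in EVs. The calls of HILPDA and NDRG1 in this difference ended without any one of the 6 cell libraries, and with equal totals. Those of BNIP3L and EGLN1 ended without hypoxia cell replicate 2.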

How the results depend on the processing

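Of the values for the 10 genes under alternatives other than leaving out a library, 457 kept their direction and side of the threshold, 17 reversed, 16 lost and 9 gained a call. None of the reversed values was called, and the cause of these changes was not tested. With all 12 libraries in the fit, 84 genes (5254 in the 6) and 3 of the 10 (8) were called in cells, and 8238 genes (3432) and 1 of the 10 (0) in EVs. In EVs a pseudocount of 5 gave 5311 genes, subtraction 0 (6664 at an unadjusted p under 0.05, limma), and equal totals 1 of the 10. EVs against cells in hypoxia gave 9764 genes (16857) with a filter of 50. The difference of responses gave 559 genes, against 873 with a filter of 50, 105 without one, 1773 with TMM, 1961 with subtraction, 1580 with edgeR and 2189 with DESeq2, and equal totals called 1 of the 10 (3).

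Same-numbered replicates did not deviate together (r of -0.161 to 0.045 over 12 pairs, 0 over 0.1). With 3 libraries per group, noise between libraries could hide a pairing, so whether the numbers pair them stays unknown. With the replicate block 5316 genes were called in cells, 5409 in EVs, 16595 and 13231 in EVs against cells in hypoxia and in normoxia, and 328 in the difference, with 8, 0, 8, 8 and 3 of the 10.

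Leaving out 1 library gave 4296 to 4740 genes in cells, 6 (without normoxia EV replicate 2) to 10124 (without normoxia EV replicate 3) in EVs, 15180 to 17935 and 11752 to 15488 in EVs against cells in hypoxia and in normoxia, and 38 to 5496 in the difference. Of the 10, it called 8 to 8, 0 to 0, 7 to 9, 7 to 8 and 1 to 5 in the same order.

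Reversed with equal totals were PLIN2 in cells (0.0047) and EVs (0.0832), NDRG1 in EVs (0.50), and in the difference PLIN2 (0.0785), HIGD1A (0.14), WSB1 (0.0725) and RORA (0.045). With subtraction HILPDA (-1.43), FAM162A (-0.38), ANKRD37 (-1.58), WSB1 (-4.06) and RORA (-1.69) reversed in EVs, CA9 (-0.23) in EVs against cells in hypoxia and ANKRD37 (-0.63) in normoxia. FAM162A in EVs was -0.14 with TMM, -0.0241 with edgeR and -0.0869 with DESeq2. Leaving out 1 library, PLIN2 ranged from -0.23 to 0.0186 in cells and -0.65 to 0.0269 in the difference; in EVs HILPDA ranged from -0.0701 to 0.66, FAM162A from -0.16 to 0.16, ANKRD37 from -0.10 to 0.59, NDRG1 from -0.19 to 0.039 and RORA from -0.0274 to 0.43. EV depth limits ANKRD37 and CA9, with 3 to 34 reads per EV library.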
